A study of Solanum commersonii and Solanum tuberosum with 8 samples.

Results

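The transcripts described here were represented by 167 of 11366 clones on a potato microarray. These clones were lower after 7 d of cold in both Solanum tuberosum, the cultivated potato, and Solanum commersonii, a freezing-tolerant wild relative. They were also lower in warm-grown S. tuberosum that expressed the Arabidopsis transcription factor CBF3, but stayed within 2-fold of wild type in S. commersonii that expressed it. A clone was chosen when its log2 ratio was -1 or less in both 7 d columns and in S. tuberosum 35S::AtCBF3, and between -1 and 1 in S. commersonii 35S::AtCBF3. Clones at -1 or less in both 24 h columns were removed. The clones were thus chosen by their measured ratios at 7 d and with 35S::AtCBF3, and those ratios are given as a description.

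The study had 8 columns of log2 ratios from leaf RNA, 4 for each species. A column gave each clone a single value made from 3 slides, or from 2 slides in the case of S. tuberosum 35S::AtCBF3. In each species wild-type plants after 2 h, 24 h and 7 d at 2°C were compared with wild-type plants at 25°C, and 35S::AtCBF3 plants at 25°C with wild type, also in the warm. The 2 h cold plants had a 2 h warm control, and the 24 h and 7 d cold plants of a species had the same 24 h warm control, so the 7 d plants were older than their control. All plants had grown for 3 weeks at 25°C in days of 16 h light and 8 h dark before cold began 8 h after dawn. Light was set at 50 in the cold and 350 in the warm, in 1 unit, so light and temperature cannot be told apart. The transgene was driven by 35S, a constitutive promoter, in 2 S. tuberosum lines and 3 S. commersonii lines. For the S. tuberosum transgenic sample the genotype entry gives S. commersonii. Its title, source and organism give S. tuberosum, which was followed here. Whether the wild type set against the transgenic plants was also a control of the cold series is not given in the sources used here.

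In Arabidopsis the CBF proteins (also called DREB1) are made within hours of a drop in temperature. They bind a short element in the promoters of cold-responsive genes and activate them, and the resulting regulon contributes to freezing tolerance. Plants that express a CBF protein all the time carry part of the cold-acclimated state in the warm and in Arabidopsis often grow slowly. CBF proteins are known chiefly as activators, and transcripts that are lower in such plants are often viewed as indirect targets. S. commersonii gains freezing tolerance during cold exposure, whereas S. tuberosum gains little or none.

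The files name the clones by identifiers only and do not pair them with genes. No function or sequence is therefore given for any clone, the leaf identity of the RNA could not be checked against marker genes, and several clones may carry the same gene. With 1 value per clone and column there was no spread between replicates, so no difference between columns was tested. Counts and medians describe clones, not plants. Positive ratios were taken to mean more transcript in the treated or transgenic leaves, a direction that the labels make likely but do not state, and the opposite direction would turn every sign. In leaf RNA, fewer cells of a type and less RNA per cell cannot be told apart.

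The choice of clones narrowed in steps. At 7 d 440 clones were lower in both species, 3.87% of all clones. Of these, 282 clones (64.1%) were also lower with 35S::AtCBF3 in S. tuberosum, where 7.28% of all clones were lower. With 35S::AtCBF3 in S. commersonii 122 of the 440 (27.7%) were lower, where 3.11% of all clones were. Both transgenic columns held 105 of the 440 as lower, S. tuberosum alone 177, S. commersonii alone 17 and neither 141. None of the 282 was 2-fold higher with 35S::AtCBF3 in S. commersonii, where 5.81% of all clones were. Without regard to the cold, 624 clones (5.49%) met both transgenic conditions. The condition on 24 h, which 59 clones in all failed (0.519%), removed 10 of the 177 and left the 167. The split by transgenic column depended on scaling. With all columns set to the same spread, 329 clones were lower at 7 d in both species. Of these, 48.6% were lower with 35S::AtCBF3 in S. tuberosum and 27.7% in S. commersonii. S. tuberosum alone then held 95, S. commersonii alone 26, both 65 and neither 143.

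Among the 440 clones lower at 7 d in both species, the share with transgenic ratios below 0 differed less between the species than the share at -1 or less. With 35S::AtCBF3, 391 (88.9%) had ratios below 0 in S. tuberosum and 379 (86.1%) in S. commersonii. Over all clones these shares were 49.2% in S. tuberosum and 48.8% in S. commersonii. In the scatter of the 440 clones the 167 form no cloud of their own. They run into the clones lower in both transgenic species across the line at -1.

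**Figure D1:**
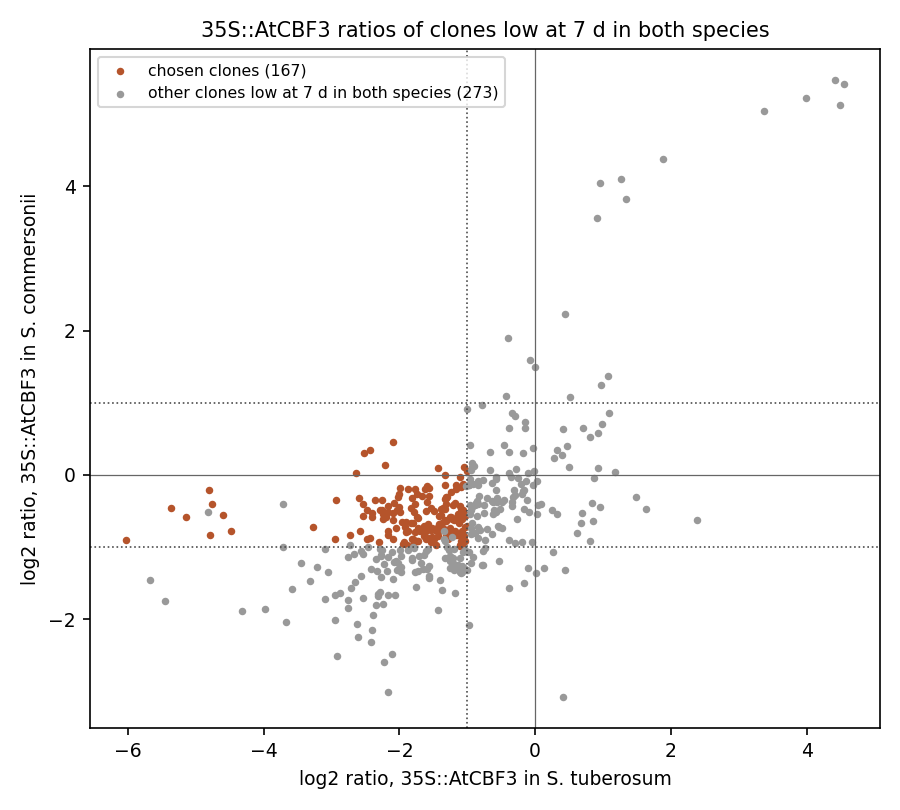
Each point is 1 of the 440 clones lower at 7 d in both species, with the log2 ratio of 35S::AtCBF3 in S. tuberosum on the horizontal axis and in S. commersonii on the vertical axis. Dotted lines mark -1 and 1; the 167 chosen clones lie left of -1 in S. tuberosum and between -0.99 and 0.46 in S. commersonii, and 8 of them lie at -4 or less in S. tuberosum.

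At 7 d, a time used for the choice, the 167 clones ranged from -3.21 to -1.02 in S. tuberosum, with a median of -1.63 (3.09-fold lower). In S. commersonii they ranged from -3.14 to -1.001, with a median of -1.44 (2.71-fold lower). In S. tuberosum 54 of the clones were at least 4-fold lower, in S. commersonii 33, and in both species 26. Of all 11366 clones, 173 were in S. tuberosum, 140 in S. commersonii and 101 (0.889%) in both. In all clones together, 6.42% were at least 2-fold lower at 7 d in S. tuberosum and 5.42% in S. commersonii, but the choice itself put all 167 there. The ratios of the species followed each other across the clones, with a Pearson r of 0.76 and a Spearman rho of 0.73 over 167 clones and 0.82 (Pearson) over all 11366. Points in these correlations share the slides of each column, and clones of the same gene may be among them.

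At 7 d the ratio in S. tuberosum was below that in S. commersonii for 120 of the 167 clones (71.9%, against 50.04% of all clones), with a median difference of -0.16 (S. tuberosum minus S. commersonii, quartiles -0.40 and 0.02). In 145 clones (86.8%, against 90.2% of all clones) the species lay within 1.5-fold of each other. At least 2-fold lower in S. tuberosum than in S. commersonii were 2 clones (1.20%, against 1.13% of all clones), and none was the reverse, against 1.28% of all clones. The difference was not stable to scaling: with all columns set to the same spread the median difference among the clones then chosen was 0.01, and 43 of 91 were lower in S. tuberosum.

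With 35S::AtCBF3 in S. tuberosum, also used for the choice, the ratios ran from -6.02 to -1.001 with a median of -1.61 (3.05-fold lower). The median after 7 d of cold in the same species was -1.63, and 83 of the 167 clones (49.7%, against 49.1% of all clones) were lower with the transgene than after 7 d. The distribution had a long lower tail. In it 69 clones lay between -1.5 and -1, 51 between -2 and -1.5 and 38 between -3 and -2. Below these stood a single clone at -3.27 and then a separate group of 8 from -4.49 to -6.02.

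In S. commersonii the same transgene gave ratios from -0.99 to 0.46, bounded by the rule, with a median of -0.59 (1.51-fold lower). The rule left the sign open but required low values in S. tuberosum 35S::AtCBF3, which correlates with this column over all clones (Pearson r = 0.48). Below 0 lay 159 of the 167 clones (95.2%). At least 1.5-fold lower were 85 clones (50.9%). Over all 10353 clones inside the same bounds the median was -0.0016, with 50.2% below 0 and 6.25% at least 1.5-fold lower. For 159 of the 167 clones the transgenic ratios of the species thus had the same sign and differed in size.

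The negative ratios in S. commersonii went with both parts of the choice. The 113 late-low clones inside the bounds that were not lower with 35S::AtCBF3 in S. tuberosum had a median of -0.34 in the S. commersonii transgenic column, with 72.6% below 0. Another 442 clones inside the bounds were lower with the transgene in S. tuberosum but not late-low in both species. They had a median of -0.34 as well, with 78.7% below 0. Both of these sets left out clones lower in both 24 h columns, as the choice did. The 167 clones, which meet both conditions, had the lower median of -0.59. These differences between sets of clones were not tested.

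Within the 167 clones, the transgenic difference between the species had a median of -0.996 (S. tuberosum minus S. commersonii, 1.99-fold, quartiles -1.56 and -0.70). It reached 2-fold in 82 clones (49.1%, against 6.77% of all clones) and stayed below 2-fold in 85 (50.9%, against 87.8%). Of the 85, 29 differed by less than 1.5-fold (17.4% of the 167, against 70.2% of all clones). The choice, which asks for low values in S. tuberosum only, favours such a difference. The size in S. tuberosum did not follow that in S. commersonii across the clones (Pearson r = -0.01, Spearman rho = -0.02, n = 167), where over all clones r was 0.48. Both columns were bounded by the rule, which narrows such a correlation. The S. tuberosum transgenic column, from the fewest slides, also had the wider central spread over all clones, 0.48 against 0.37 in S. commersonii (SD from the median absolute deviation).

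Clones with lower S. commersonii transgenic ratios mostly had lower 7 d ratios too, though S. tuberosum broke the order in 1 class. The 53 clones between -1 and -0.75 in S. commersonii 35S::AtCBF3 had 7 d medians of -1.94 in S. tuberosum and -1.61 in S. commersonii. The 53 clones between -0.75 and -0.5 had 7 d medians of -1.57 in S. tuberosum and -1.41 in S. commersonii, and the 38 clones between -0.5 and -0.25 had -1.63 in S. tuberosum and -1.36 in S. commersonii. For the 15 clones between -0.25 and 0 these medians were -1.37 in S. tuberosum and -1.21 in S. commersonii. The 8 clones above 0 stood nearest to the bound of -1 at 7 d, at -1.20 in S. tuberosum and -1.16 in S. commersonii. The correlation between S. commersonii 35S::AtCBF3 and S. tuberosum at 7 d, which share no plants, was 0.27 (Pearson and Spearman) over the 167 clones and 0.28 (Pearson) over all clones.

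Clones near a bound were many. Just inside the bound of -1 the nearest clones were at -1.02 for S. tuberosum at 7 d, -1.001 for S. commersonii at 7 d, -1.001 for S. tuberosum 35S::AtCBF3 and -0.986 for S. commersonii 35S::AtCBF3. Just outside, with the other conditions met, the nearest were at -0.999 for S. tuberosum at 7 d, -0.982 for S. commersonii at 7 d, -0.999 for S. tuberosum 35S::AtCBF3 and -1.001 for S. commersonii 35S::AtCBF3. Within 0.25 of the S. commersonii 35S::AtCBF3 bound lay 53 clones inside and 38 outside. A margin of 0.25 from all 4 of these bounds was kept by 49 of the 167 clones (29.3%).

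**Figure D2:**
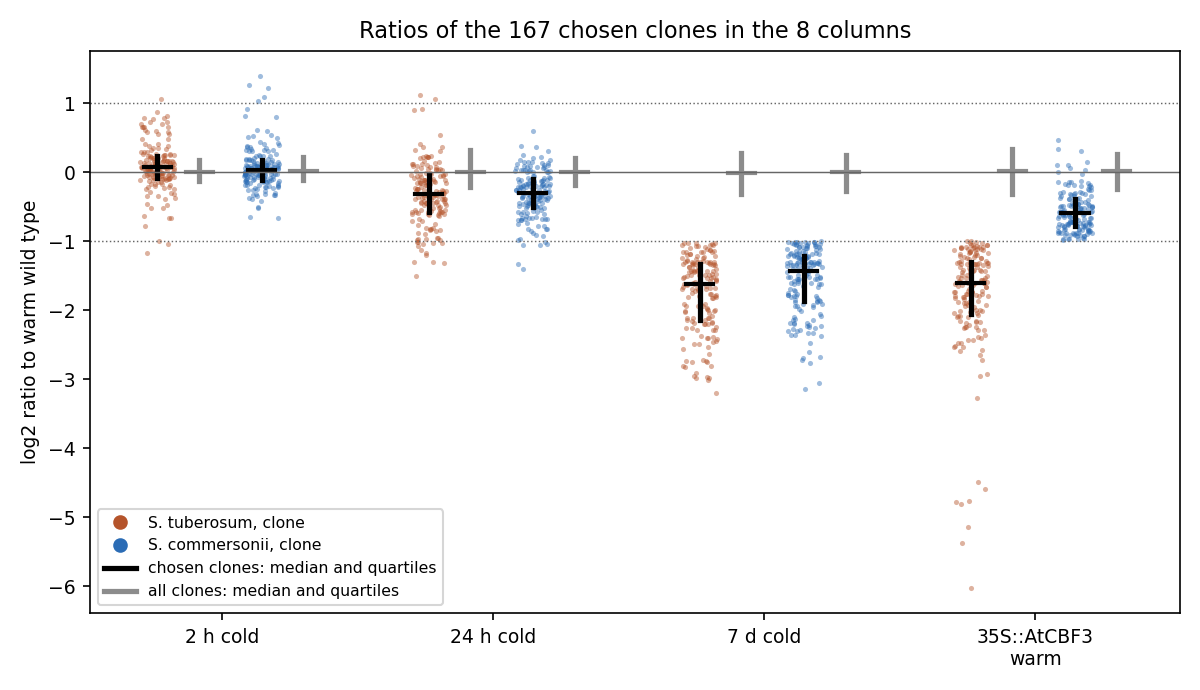
Log2 ratios of the 167 clones (points) in the 8 columns, S. tuberosum left of S. commersonii in each pair, with the median and quartiles of the 167 clones in black and of all clones in grey; dotted lines mark -1 and 1. The 167 clones lie about 0 at 2 h, at medians of -0.32 (S. tuberosum) and -0.30 (S. commersonii) at 24 h and of -1.63 (S. tuberosum) and -1.44 (S. commersonii) at 7 d, with the edges at -1 in the 7 d and 35S::AtCBF3 columns set by the choice.

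The 2 h columns were not used in the choice and have their own warm control. After 2 h of cold the 167 clones stood close to the control, with medians of 0.07 in S. tuberosum (quartiles -0.08 and 0.23) and 0.02 in S. commersonii (quartiles -0.12 and 0.17). The medians of all clones were -0.0031 in S. tuberosum and 0.011 in S. commersonii. Within 1.5-fold of the control in both species were 139 clones (83.2%, against 82.3% of all clones).

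Few of the 167 clones were among those higher at 2 h. In S. tuberosum 1 clone (0.599%) was at least 2-fold higher at 2 h, where 7.87% of all clones were. In S. commersonii 5 clones (2.99%) were, where 10.9% of all clones were. No clone was 2-fold higher in both species at 2 h, where 7.15% of all clones were. At least 2-fold lower at 2 h were 2 clones (1.20%) in S. tuberosum, where 0.334% of all clones were, and none in S. commersonii, where 0.15% were. Across the 167 clones the 2 h ratios of the species correlated at 0.62 (Pearson) and 0.55 (Spearman), against 0.86 (Pearson) over all clones.

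At 24 h the clones were slightly below the control in both species. The median was -0.32 in S. tuberosum (1.25-fold lower, quartiles -0.58 and -0.04) and -0.30 in S. commersonii (1.23-fold lower, quartiles -0.51 and -0.10), against 0.0066 in S. tuberosum and 0.0033 in S. commersonii over all clones. In each species 131 of the 167 clones (78.4%) were below 0. The share over the whole array was 49.3% for S. tuberosum and 49.5% for S. commersonii. Both species were below 0 for 113 clones (67.7%, against 36.2% of all clones). S. tuberosum alone was below 0 for 18 (10.8%, against 13.1% of all clones). S. commersonii alone was below 0 for another 18 (10.8%, against 13.3%), and neither species for 18 (10.8%, against 37.4%). The 24 h and 7 d columns of a species share a warm control, and clones chosen as lower at 7 d may be lower at 24 h for that reason too, which was not tested.

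Lower by at least 2-fold at 24 h were 13 clones (7.78%) in S. tuberosum, where 1.43% of all clones were, and 6 others (3.59%) in S. commersonii, where 1.24% were. Since the choice removed clones lower in both, the matching shares of all clones are 0.915% lower in S. tuberosum alone and 0.721% lower in S. commersonii alone. The 13 clones had a 24 h median of -1.13 in S. tuberosum and -0.70 in S. commersonii, and for the 6 clones it was -0.82 in S. tuberosum and -1.06 in S. commersonii. Both groups were thus below the control in the other species too. In S. tuberosum 2 clones (1.20%), at 1.05 and 1.12, passed 2-fold upward at 24 h, where 11.9% of all clones did. In S. commersonii these 2 clones were between 0.15 and 0.18, and none of the 167 was 2-fold higher, where 2.65% of all clones were.

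Most of the decline lay between 24 h and 7 d. The 7 d column minus the 24 h column had a median of -1.31 in S. tuberosum (quartiles -1.78 and -0.97) and of -1.18 in S. commersonii (quartiles -1.56 and -0.91). Every one of the 167 clones was lower at 7 d than at 24 h in both species. Over all clones 54.3% were in S. tuberosum and 54.7% in S. commersonii. The choice favours this order, as it asks for low values at 7 d and bars low values in both species at 24 h. The step before, which the choice does not set, went the same way less often: the 24 h ratio was below the 2 h ratio for 140 clones in S. tuberosum (83.8%, against 47.4% of all clones) and for 128 in S. commersonii (76.6%, against 59.1%). These steps compare ratios to 2 different warm controls.

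The 24 h values differed with the size of the transgenic response. Among the 69 clones between -1.5 and -1 in S. tuberosum 35S::AtCBF3 the 24 h medians were -0.48 in S. tuberosum and -0.43 in S. commersonii. Among the 51 clones between -2 and -1.5 they were -0.30 in S. tuberosum and -0.34 in S. commersonii, and among the 38 clones between -3 and -2 they were -0.06 in S. tuberosum and -0.14 in S. commersonii. The lower the transgenic ratio in these 3 classes, the closer to the control was the 24 h median in both species.

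The 8 clones at -4 or less with the transgene had 24 h medians of 0.21 in S. tuberosum and -0.15 in S. commersonii, with ranges of -0.14 to 0.54 in S. tuberosum and -0.79 to 0.36 in S. commersonii. The 24 h median in S. commersonii lay in a gap: 4 of the 8 were at -0.42 or less and the others at 0.12 or more. At 7 d the medians of the 8 clones were -2.37 in S. tuberosum and -1.97 in S. commersonii, below those of all 167 clones. In S. commersonii 35S::AtCBF3 these 8 clones lay between -0.90 and -0.21. Across the 167 clones S. tuberosum 35S::AtCBF3 and S. commersonii at 24 h, which share no plants, correlated at -0.20 (Pearson) and -0.27 (Spearman), against 0.19 (Pearson) over all clones.

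**Figure D3:**
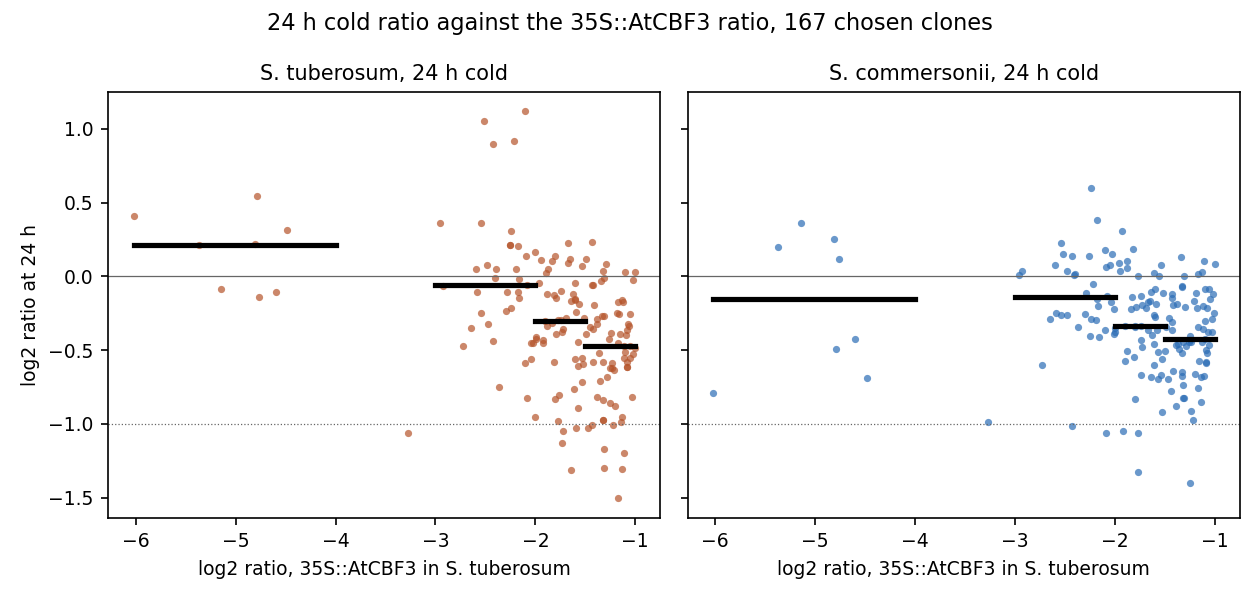
The log2 ratio at 24 h of cold (vertical axis; S. tuberosum in the left panel, S. commersonii in the right panel) against the log2 ratio of 35S::AtCBF3 in S. tuberosum (horizontal axis) for the 167 clones, with black bars at the medians of 4 ranges of the horizontal axis. From right to left the S. tuberosum medians are -0.48, -0.30, -0.06 and 0.21, and the S. commersonii medians -0.43, -0.34, -0.14 and -0.15.

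The clones with the lowest mean over the 3 columns required to be low were STMIW27 and STMCV75, both in the group of 8. In S. tuberosum STMIW27 had log2 ratios of 0.66 (2 h), -0.09 (24 h) and -3.01 (7 d), and in S. commersonii of -0.04, 0.36 and -2.33 at these times. With 35S::AtCBF3 it was at -5.14 in S. tuberosum (35.4-fold lower) and at -0.58 in S. commersonii (1.49-fold lower). STMCV75 had 0.25, 0.21 and -2.81 in the cold in S. tuberosum and 0.06, 0.20 and -2.01 in S. commersonii. These clones were within 2-fold of the control until 24 h and were at least 4-fold lower at 7 d in both species. The transgenic ratios of STMCV75 were -5.37 in S. tuberosum (41.4-fold lower) and -0.46 in S. commersonii (1.38-fold lower).

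The clones with the highest mean of the 2 h columns were STMCX21 and STMCJ08. In S. tuberosum STMCX21 had ratios of 0.73 (2 h), -1.13 (24 h) and -2.95 (7 d), and in S. commersonii of 1.39, -0.13 and -1.36 at these times. STMCJ08 had 0.78, -0.13 and -2.42 in S. tuberosum and 1.26, -0.55 and -1.6 in S. commersonii. Both were higher at 2 h, by 2.62-fold (STMCX21) and 2.39-fold (STMCJ08) in S. commersonii, and lower at 7 d. With 35S::AtCBF3 STMCX21 was at -1.74 in S. tuberosum and -0.26 in S. commersonii, and STMCJ08 was at -1.81 in S. tuberosum and -0.88 in S. commersonii.

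**Figure D4:**
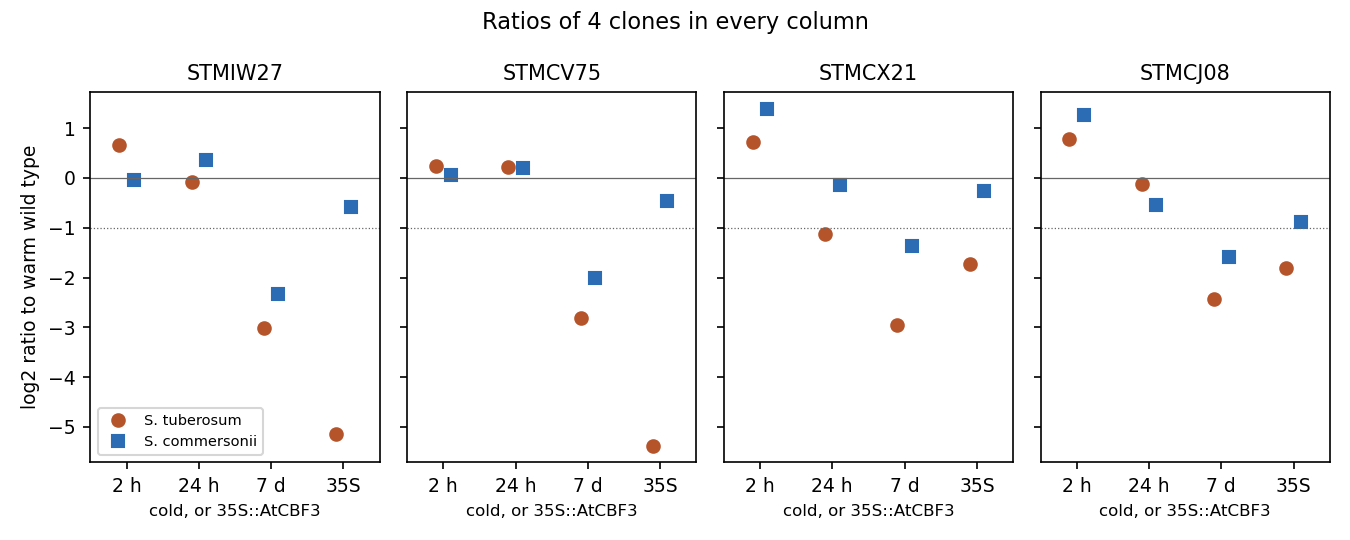
Log2 ratios of STMIW27, STMCV75, STMCX21 and STMCJ08 after 2 h, 24 h and 7 d of cold and with 35S::AtCBF3 in the warm (horizontal axis), in S. tuberosum (circles) and S. commersonii (squares); each point is 1 deposited value. STMIW27 and STMCV75 reach -5.14 and -5.37 with the transgene in S. tuberosum, and STMCX21 and STMCJ08 are above 0 at 2 h in both species.

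Beside the 167 clones stood 2 other sets of late-low clones chosen with the same 24 h condition, 95 clones lower with 35S::AtCBF3 in both species and 109 within 2-fold in both transgenic columns. At 24 h the 167 clones had the medians nearest to the control, at -0.32 in S. tuberosum and -0.30 in S. commersonii. The 95 clones had -0.57 in S. tuberosum and -0.59 in S. commersonii, and the 109 clones had -0.46 in S. tuberosum and -0.51 in S. commersonii. Within 1.5-fold of the control in both species at 24 h were 110 of the 167 clones (65.9%), 33 of the 95 (34.7%) and 47 of the 109 (43.1%), against 73.6% of all clones. The set chosen by the rule kept the 24 h median nearest to the control under the thresholds, centring and scaling tried and without the 24 h condition, while the other sets changed places at the 1.5-fold threshold.

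At 7 d the 167 clones were close to the 109 clones in S. commersonii, with medians of -1.44 and -1.43, and lay lower than them in S. tuberosum, with medians of -1.63 and -1.44. The 95 clones were lower than both sets at 7 d, with medians of -1.91 in S. tuberosum and -2.01 in S. commersonii. The difference between the species at 7 d (S. tuberosum minus S. commersonii) had medians of -0.16 in the 167 clones, 0.0020 in the 95 and -0.03 in the 109. At 2 h the 3 sets had medians between -0.02 and 0.08. With 35S::AtCBF3 in S. commersonii the 167 clones at -0.59 lay between the 95 clones at -1.30, whose lower place the definitions set, and the 109 clones at -0.34. None of these differences was tested.

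**Figure D5:**
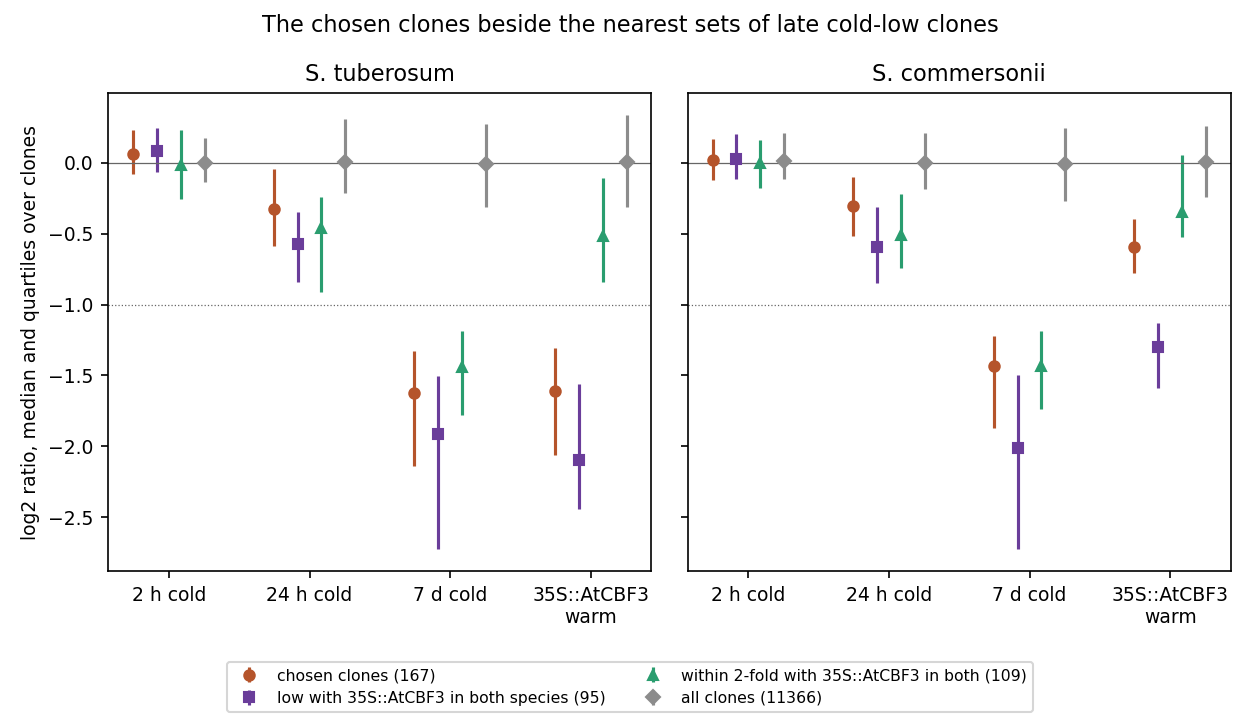
Medians (symbols) and quartiles (bars) over clones of the log2 ratio for the 167 chosen clones, the 95 clones lower with 35S::AtCBF3 in both species, the 109 clones within 2-fold in both transgenic columns and all 11366 clones, by column in S. tuberosum (left) and S. commersonii (right). At 24 h the chosen clones have medians of -0.32 in S. tuberosum and -0.30 in S. commersonii, nearer to 0 than those of the other late-low sets.

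The 10 clones removed for being lower in both 24 h columns met the other conditions of the choice. Their 7 d medians were -2.49 in S. tuberosum and -2.41 in S. commersonii, below those of the 167 clones. Their transgenic medians were -1.34 in S. tuberosum and -0.87 in S. commersonii.

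The names of the 167 clones, which were 1.47% of all clones, placed them in many parts of the library. Grouped by the first 5 characters of the clone name, the library fell into 157 groups of 36 to 92 clones. Of these groups, 86 contained at least 1 of the 167 clones, 44 contained exactly 1, and the most in any group was 7 of 42. Whether these counts differ from those of a random draw of clones was not tested. Whether clones with like names were printed together is not given in the sources used here.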

How the data were processed

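Leaf RNA was compared on 2-colour arrays. The authors deposited 1 log2 ratio per clone and column, 8 columns of 11366 clones; limma is named in the submitters' processing notes, without a version. Per the labels' descriptions, 3 slides were combined per column, except 2 in the S. tuberosum transgenic column. Background correction, normalization, the way slides were combined, log base, direction and centring were not given in the sources used here. Column medians lay near 0. Dyes, per the labels Cy3 and Cy5 in each channel, cannot balance over 3 slides. The number of slides limits the precision; signal intensities were not analysed here.

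From these values, Python 3.11.15 with pandas 2.3.3 and NumPy 2.4.6 selected the clones and computed counts, medians and quartiles. Lower meant a log2 ratio of -1 or less. The working of the selection was checked on simulated columns of independent noise, with some clones set low in the 3 columns required to be low. The measured columns are correlated, so that check cannot tell how many clones were chosen wrongly here. The members and lists were chosen with earlier results of these data known. Named clones were the 2 lowest by the mean of the 3 columns required to be low and the 2 highest by the mean of the 2 h columns; gene lists could not be matched to clones. Alternatives were thresholds of 1.5-fold and 3-fold, centred columns, columns scaled to the same central spread, no 24 h condition and a band of 0.5.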

Additional observations from a re-analysis of the deposited data

Results flagged for a closer look

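STMIW27 had opposite signs in the species at 2 h, 0.66 in S. tuberosum and -0.036 in S. commersonii. It also had opposite signs at 24 h, -0.089 in S. tuberosum and 0.36 in S. commersonii. With 35S::AtCBF3, 8 of the 167 clones were at -1 or less in S. tuberosum and above 0 in S. commersonii, from 0.03 to 0.46. In S. tuberosum these 8 clones had medians of -0.49 at 2 h, 0.56 at 24 h and -2.16 with the transgene. At 24 h 6 of the 8 were above 0 in S. tuberosum, and the median lay between separate groups of values. STMCV86, STMJP82, STMCZ36 and STMDP28 were between 0.89 and 1.12 there, and the others between -0.47 and 0.23. Each column gave 1 value per clone, so these differences between the species were not tested.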

How the results depend on the processing

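Values were taken as unmoved when a count stayed within 1.5 times the reported one, or a median stayed within the exact binomial 95% interval of the reported median over clones. No paired analysis was possible because each group had 1 deposited column, and no slide could be left out. Averaging the clones of 1 gene was not run, since no gene was matched. Centred columns and the rule without its 24 h condition moved none of the 14 results each. The number of chosen clones was 257 at 1.5-fold (75 shared with the 167), 67 at 3-fold (33 shared), 91 with columns scaled (82 shared) and, in an alternative added after seeing the data, 61 with the band of 0.5. At 1.5-fold the 24 h medians of the chosen clones were -0.14 in S. tuberosum and -0.18 in S. commersonii, the S. commersonii 35S::AtCBF3 median was -0.32 and the species difference at 7 d (S. tuberosum minus S. commersonii) -0.12. At 3-fold the 24 h medians were -0.42 in S. tuberosum and -0.44 in S. commersonii, the S. commersonii 35S::AtCBF3 median -0.97 and the species difference with 35S::AtCBF3 -1.44. With scaling the 2 h median in S. tuberosum was 0.17, the S. commersonii 35S::AtCBF3 median -0.68, the species difference with 35S::AtCBF3 -0.81 and that at 7 d 0.0066, which turned its sign. The band of 0.5 gave an S. commersonii 35S::AtCBF3 median of -0.31. The clones lower with 35S::AtCBF3 in both species numbered 234 at 1.5-fold, 20 at 3-fold and 56 with scaling. Their 24 h medians were -0.30 in S. tuberosum and -0.28 in S. commersonii at 1.5-fold, -0.81 in S. tuberosum and -0.87 in S. commersonii at 3-fold, and -0.73 in S. commersonii with scaling. The clones within the band in both transgenic columns numbered 174 at 1.5-fold, with 24 h medians of -0.35 in S. tuberosum and -0.35 in S. commersonii, and had a 24 h median of -0.68 in S. tuberosum at 3-fold. The causes of these shifts were not tested, except that a bound at another size sets the values it cuts. The share of chosen clones below 0 with 35S::AtCBF3 in S. commersonii ranged from 85.2% (1.5-fold) to 100% (3-fold). In these 2 settings the bounds on that column were at 1.5-fold and 3-fold too, so the sets differ in kind from the 167 clones.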
